A study of Mus musculus with 6 samples.

Results

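The oligodendrocyte lineage genes described here are 8 genes chosen by name, Olig1, Olig2, Sox10, Pdgfra, Cspg4, Gpr17, Mbp and Cnp, out of 26852 genes with a row in the expression table of E14.5 mouse midbrain. All 8 were measured in all 6 libraries and passed the minimum of a mean normalized count of 10. So did 16766 genes in all among those whose reads per library could be recovered. RNA was sequenced from whole midbrains of C57Bl/6 embryos of 2 genotypes with 3 libraries each, and every library pooled 2 embryos out of 4 litters. The cKO embryos were Lmx1b fl/fl;Pitx3-Cre and the controls were Lmx1b wt/wt;Pitx3-Cre, so both groups carried the Cre driver, which occupies 1 Pitx3 allele. Pitx3 is a transcription factor gene of dopaminergic neurons, and the Cre is therefore active in these neurons shortly before the age studied, and is not directed at glial precursors. The comparison asks whether the genes of a glial lineage differed in midbrains in which Lmx1b, a LIM homeodomain factor gene, was deleted in the neurons.

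Oligodendrocytes are the myelin-forming glia of the central nervous system. They arise from ventral neuroepithelial progenitors that express Olig2, pass through a migrating and dividing precursor stage marked by Pdgfra and Cspg4, and then through a committed stage marked by Gpr17 before they make myelin proteins such as Mbp and Cnp. In the mouse, precursors appear in the ventral brain around mid-gestation, and myelin is laid down mainly after birth.

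Levels are given as normalized counts, that is, reads divided by a size factor for each library, and the libraries of each genotype are called replicates a, b and c. The reads per library were recovered from the deposited group means for 26441 genes (98.5%), which gave 21437878 to 26022590 reads per library on these genes. The labels do not tie these libraries to sample numbers. Lmx1b itself had a level of 1371 ± 102 normalized counts among cKO libraries and 1398 ± 66.6 in the control (SD, n = 3, exact permutation p = 0.8, two-sided), so the total Lmx1b count of whole midbrain did not check the genotype labels. Pitx3 had 141 ± 26.3 and 185 ± 11.3 normalized counts, with no overlap between the groups (exact permutation p = 0.1, the smallest that 3 against 3 libraries allow). One cKO library, replicate c, stood apart in 13 mesenchyme and meninges genes, which summed to 14643 normalized counts there, to 2685 and 1042 in the other cKO libraries and to 967 to 1123 in the controls.

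Of the 8 genes, 0 differed between cKO and control at a limma adjusted p under 0.05, as was the case for all 16766 genes tested (0.0%). At an unadjusted p under 0.05, limma called 0 of the 8 genes, against 2.77% of all genes tested (1.16% higher and 1.61% lower in the cKO), and the same count of 0 was found without cKO replicate c. The cKO and control ranges overlapped for 8 of 8 genes, and 7.63% of all genes tested had ranges that did not overlap (3.86% higher and 3.77% lower in the cKO). The fitted log2 fold change of cKO over control was positive for 3 genes and negative for 5, with a median of -0.02, and the median of all genes tested was 0.00016. Because the tissue is bulk midbrain, fewer cells of a type and less RNA per cell cannot be told apart in any of these values.

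**Figure D1:**
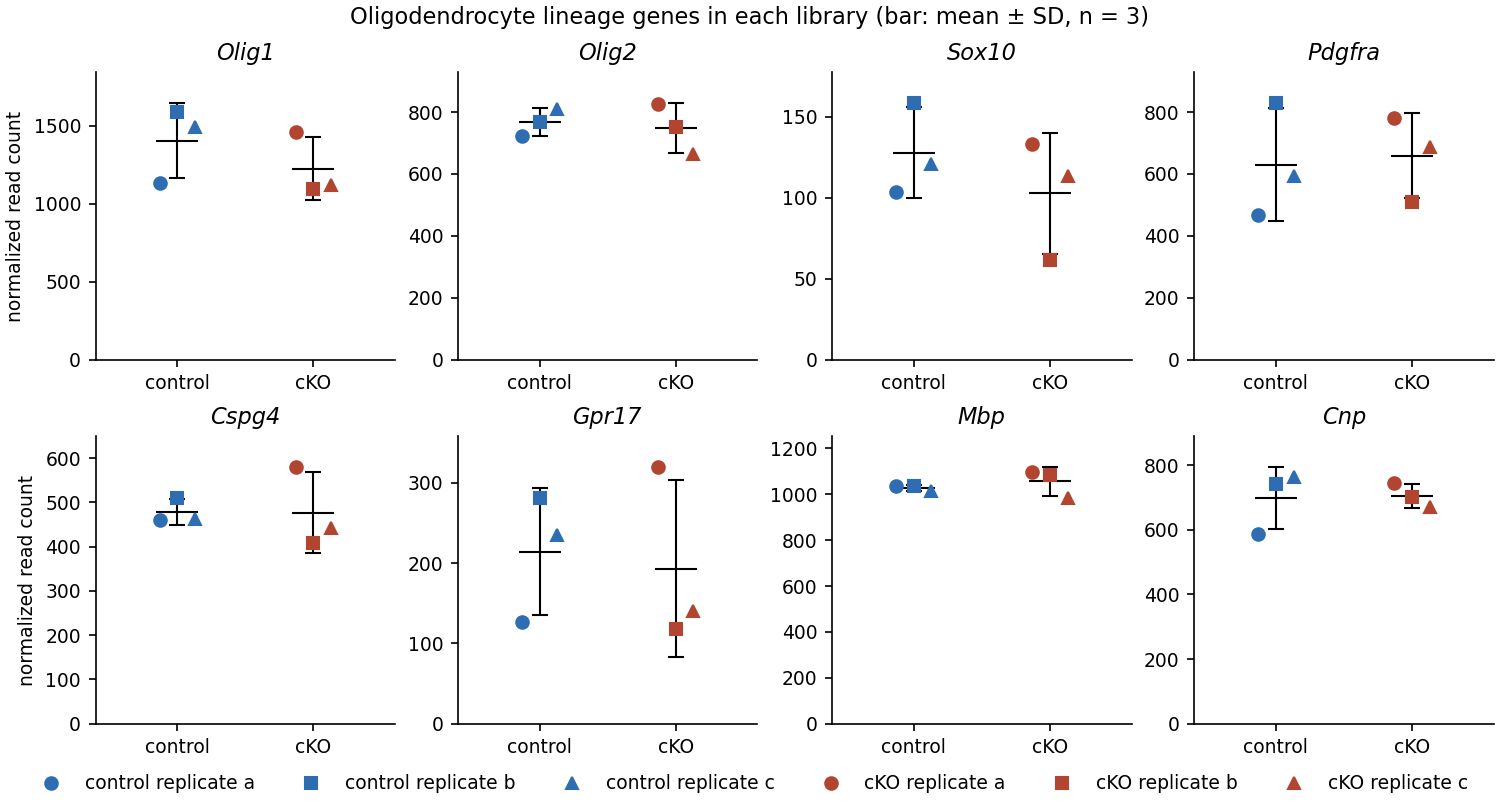
Normalized counts of the 8 oligodendrocyte lineage genes in each of the 3 cKO and 3 control libraries, 1 panel per gene with its own linear axis from 0; points are libraries and bars are the mean ± SD (n = 3). The cKO and control points overlap in all 8 panels, and Gpr17 runs from 118 to 319 within the cKO while Mbp stays between 984 and 1098 over all libraries.

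Promoter sequence was at hand for 4 of the 8 genes, and is shown because Olig proteins bind E-box motifs and SOX proteins bind the ACAAAG motif. The stretches below are RefSeq promoter sequence on build GRCm38.p6, plus strand, 5′ to 3′, up to the base before the RefSeq or GENCODE start, whichever comes first, and capitals mark E-boxes (CANNTG) and ACAAAG matched on both strands. Olig2 is at chr16:91225300-91225456, Pdgfra at chr5:75152001-75152250, Cspg4 at chr9:56864854-56865032 and Cnp at chr11:100574689-100574903.
Olig2: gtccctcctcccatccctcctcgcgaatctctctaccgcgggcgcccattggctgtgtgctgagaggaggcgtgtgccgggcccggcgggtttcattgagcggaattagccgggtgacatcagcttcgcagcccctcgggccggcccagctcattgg
Pdgfra: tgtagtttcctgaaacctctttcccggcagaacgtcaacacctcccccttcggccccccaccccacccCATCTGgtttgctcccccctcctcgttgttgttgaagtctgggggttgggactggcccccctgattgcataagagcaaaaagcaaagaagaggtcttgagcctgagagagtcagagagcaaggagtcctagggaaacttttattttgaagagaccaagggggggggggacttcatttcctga
Cspg4: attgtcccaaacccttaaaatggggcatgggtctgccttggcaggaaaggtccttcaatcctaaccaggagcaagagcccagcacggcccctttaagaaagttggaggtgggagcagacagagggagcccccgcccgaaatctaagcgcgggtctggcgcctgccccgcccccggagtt
Cnp: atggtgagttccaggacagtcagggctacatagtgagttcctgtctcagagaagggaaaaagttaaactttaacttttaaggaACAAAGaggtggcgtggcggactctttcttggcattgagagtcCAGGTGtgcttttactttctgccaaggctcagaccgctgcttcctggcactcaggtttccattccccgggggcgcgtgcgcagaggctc
Within the 300 bases around each start, the Pdgfra window held 2 E-boxes (CATCTG and CAAATG), the Cnp window held 1 (CAGGTG), and the Olig2 and Cspg4 windows held 0. The ACAAAG motif was found once, in the Cnp window. Of 32851 mouse promoters of the same length, 72.3% held a CANNTG motif and 18.7% held ACAAAG, so these matches are a description of the letters only. The narrower E-box CAGCTG, found in 16.3% of promoters, was in 0 of the 4 windows.

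The transcription factor genes of the lineage, Olig1, Olig2 and Sox10, were present in every library. Olig1 (ENSMUSG00000046160, chromosome 16, 91269772 to 91271933, plus strand, GRCm38) encodes a basic helix-loop-helix factor that acts in precursor maturation, and had 1459, 1097 and 1121 normalized counts for cKO replicates a to c against 1130, 1588 and 1494 for control replicates a to c. The highest cKO library lay within the control range and the lowest control library within the cKO range. Group means were 1226 ± 202 and 1404 ± 242 (SD, n = 3), with a limma log2 fold change of -0.18 (SE 0.14, 95% interval -0.47 to 0.12, adjusted p = 1.00). Leaving out single libraries moved the log2 fold change of Olig1 between -0.33 and -0.07. Its unadjusted limma p was 0.220, and it was 0.0356 without cKO replicate a, 0.0113 without control replicate a and 0.0115 with the summed level of cycling genes in the model, with an adjusted p of at least 0.979 in every alternative fit. This was the member whose unadjusted call turned on single libraries.

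Olig2 (ENSMUSG00000039830, chromosome 16, 91225457 to 91228677, plus strand) lies 41094 bp upstream of Olig1 and encodes the factor required for oligodendrocyte and motor neuron specification. It had 827, 751 and 665 normalized counts across cKO libraries against 721, 768 and 811 across controls. The cKO held both the highest and the lowest library. Its means of 748 ± 81.4 and 767 ± 45.0 differed by a log2 fold change of -0.03 (SE 0.10, 95% interval -0.24 to 0.18), which in linear terms covers ratios from 0.845 to 1.13 (limma, adjusted p = 1.00). The genes whose pattern over the 6 libraries was most like that of Olig2, among 12533 genes with a mean of at least 100, were Asl, Slc39a11 and Rac1, with Pearson r of log2 normalized counts of 0.995, 0.991 and 0.985. As a description, 120 genes (0.957%) had an r over 0.9, and the 6 libraries differ in genotype, depth and dissection.

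Sox10 (ENSMUSG00000033006, chromosome 15, 79154908 to 79165240, minus strand), the SRY-box factor that switches on myelin genes, was the lowest of the 8 genes. It had 133, 61.3 and 114 normalized counts across cKO libraries against 104, 159 and 121 across controls. Replicate b was the lowest cKO library and replicate b the highest control library, and the remaining 4 libraries lay close together between them. The means of 103 ± 37.1 and 128 ± 28.1 gave a limma log2 fold change of -0.34 (SE 0.28, 95% interval -0.96 to 0.27, adjusted p = 1.00), the most negative among the 8 genes, and it was -0.02 to -0.59 when single libraries were left out. Neural crest cells also make Sox10, and the 12 genes of their list summed to 5842 to 6800 normalized counts across cKO libraries and 6606 to 7574 across controls. Most of this sum was Ednrb, at 4433 to 5828, and Pou3f1, which neural progenitors also express, while Tfap2a ranged from 226 to 508 and Mitf from 28.1 to 47.8. Foxd3, Cdh19 and Dct, whose expression is more restricted to the crest lineage, reached at most 12.7, 1.08 and 3.24, with Cdh19 at 0 in 4 of the 6 libraries. The part of crest cells in the Sox10 values was not tested.

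Pdgfra and Cspg4 mark the dividing precursor. Pdgfra (ENSMUSG00000029231, chromosome 5, 75152292 to 75198215, plus strand) encodes the receptor for PDGF-A, the main mitogen of precursors, and had 779, 510 and 688 normalized counts across cKO libraries against 469, 829 and 593 across controls. The control libraries enclosed all 3 cKO libraries. With means of 659 ± 137 and 630 ± 183, the log2 fold change was 0.10 (SE 0.20, 95% interval -0.33 to 0.53, limma adjusted p = 1.00), and leaving out single libraries moved it from -0.11 to 0.32. Mesenchymal cells also make Pdgfra, and within the cKO the mesenchyme sum was highest in replicate c, the middle library for Pdgfra, and lowest in replicate b, which also had the least Pdgfra. The within-group r of Pdgfra with this sum was 0.30 over 6 libraries.

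Cspg4 (ENSMUSG00000032911, chromosome 9, 56865033 to 56899870, plus strand), which encodes the NG2 proteoglycan of precursors and pericytes, had 580, 409 and 443 normalized counts across cKO libraries against 459, 511 and 462 across controls. Replicate a of the cKO was the highest library and the other cKO libraries were the lowest of all 6. The group means were 477 ± 90.6 and 478 ± 29.1, with a log2 fold change of -0.0046 (SE 0.13, 95% interval -0.29 to 0.28, limma adjusted p = 1.00). The 10 pericyte genes summed to 9179, 9625 and 9562 normalized counts across cKO libraries and to 9408, 9465 and 9163 in the control, led by Rgs5 at 2987 to 3514, so their sum was lowest in the library with most Cspg4 within the cKO and highest in the library with most Cspg4 within the control. How much of the Cspg4 and Pdgfra signal came from pericytes and mesenchyme was not tested.

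Gpr17 (ENSMUSG00000052229, chromosome 18, 31942997 to 31949636, minus strand) encodes a G protein-coupled receptor that is transiently made by committed precursors. It had 319, 118 and 141 normalized counts across cKO libraries against 127, 280.5 and 234 across controls. Within the cKO, replicate a stood well above the other libraries, and within the control, replicate a stood below the others. The group means of 193 ± 110.2 and 214 ± 79.0 (SD, n = 3) gave the least precise fold change of the 8 genes, a log2 value of -0.15 (SE 0.36, 95% interval -0.94 to 0.64, limma adjusted p = 1.00). In linear terms that interval runs from 0.520 to 1.55, and the log2 value lay between -0.63 (without cKO replicate a) and 0.13 (without cKO replicate b) when single libraries were left out. On the opposite strand, exons of Lims2 share 188 bp (3.62%) of the Gpr17 exon length, and the use of strand in counting is not given in the sources used here.

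Mbp varied least among the 8 genes. Mbp (ENSMUSG00000041607, chromosome 18, 82475146 to 82585637, plus strand), the gene of myelin basic protein, had 1098, 1086 and 984 normalized counts across cKO libraries against 1037, 1035 and 1013 across controls. The control libraries lay inside the cKO range. Means of 1056 ± 62.8 and 1028 ± 13.1 gave a log2 fold change of 0.04 (SE 0.07, 95% interval -0.12 to 0.20), so that ratios of cKO over control outside 0.919 to 1.15 lay beyond the 95% interval (limma, adjusted p = 1.00). The Mbp locus also makes the Golli transcripts, which cells other than oligodendrocytes use, and the table counts the locus as a whole, so that its 16 annotated transcripts cannot be told apart here.

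Cnp (ENSMUSG00000006782, chromosome 11, 100574904 to 100591729, plus strand), which encodes a myelin-associated phosphodiesterase, had 745, 701 and 671 normalized counts across cKO libraries against 587, 742 and 764 across controls. The control range enclosed the cKO range, with control replicate a the lowest of all libraries. From means of 705 ± 37.1 and 697 ± 96.5 the fitted log2 fold change came to 0.04 (SE 0.11, 95% interval -0.20 to 0.28, limma adjusted p = 1.00). Exons of Dnajc7 on the opposite strand share 154 bp (4.23%) with Cnp.

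**Figure D2:**
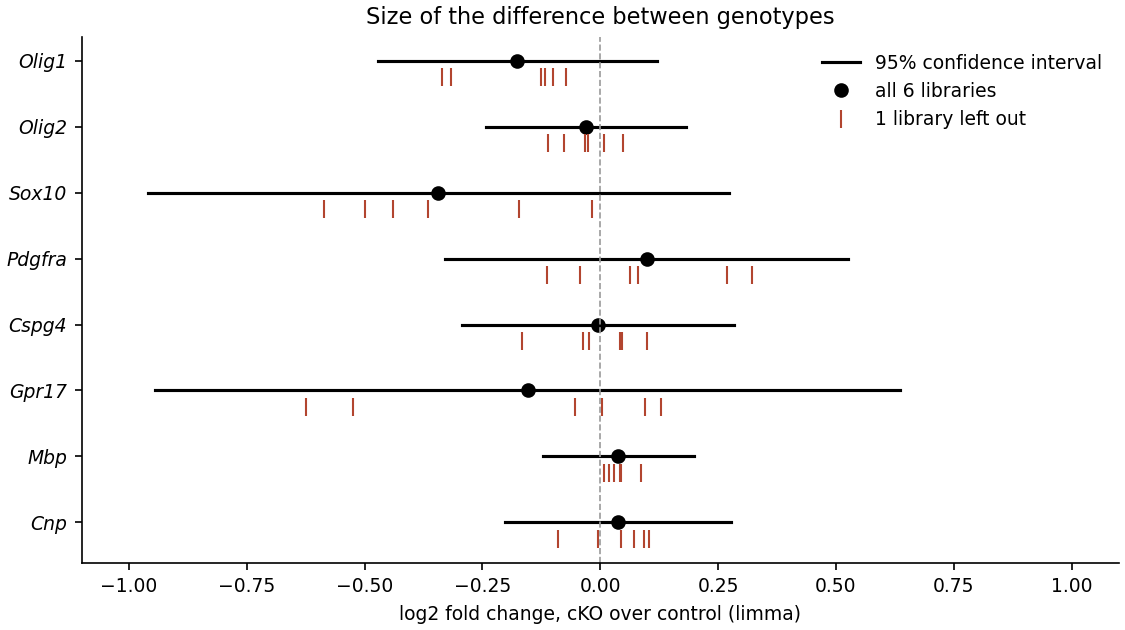
Log2 fold change of cKO over control for each of the 8 genes from the limma fit; points are estimates and bars are 95% intervals, red ticks below each bar are the estimates with 1 library left out, and 0 marks no difference. All 8 intervals include 0, from the narrow interval of Mbp (-0.12 to 0.20) to the wide interval of Gpr17 (-0.94 to 0.64).

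Per kilobase of exon, Olig1, Olig2, Cnp and Mbp were above Pdgfra, Cspg4, Gpr17 and Sox10. On this length-scaled level, Olig1 was highest with a mean of 608 normalized counts per kb (507 to 734 over the 6 libraries), followed by Olig2 with 299 (263 to 327), Cnp with 193 (161 to 210) and Mbp with 123 (116 to 130). Pdgfra followed with 64.3 (46.8 to 82.7). Among these 5 genes, the ranges of neighbours in the order did not overlap. Cspg4 at 40.0 (34.3 to 48.6), Gpr17 at 39.1 (22.8 to 61.5) and Sox10 at 37.7 (20.1 to 52.0) closed the order, and their ranges overlapped with each other, so these neighbours did not differ beyond their spread. The ranges of Pdgfra and Cspg4 also overlapped, although Pdgfra was above Cspg4 in 6 of 6 libraries. Olig1 exceeded 84.4% and Sox10 24.9% of the 16698 tested genes with a known exon length, whose median was 154.5 normalized counts per kb.

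**Figure D3:**
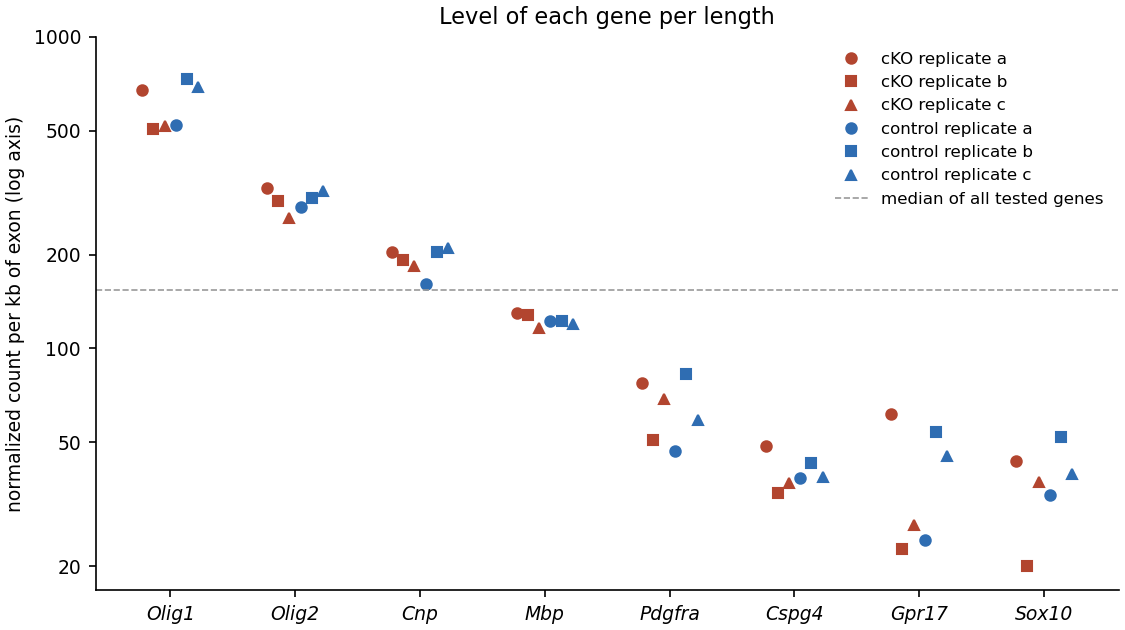
Level of each gene per kilobase of annotated exon in the 6 libraries on a log axis, ordered by mean; points are libraries, coloured by genotype, and the dashed line is the median of all tested genes (154.5). Olig1 is highest at 507 to 734 and Sox10 lowest by mean at 20.1 to 52.0 normalized counts per kb.

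Several late markers of myelinating cells were at or near 0 in the libraries in which Mbp and Cnp were measured. Mobp, Opalin and Enpp6, genes of differentiated oligodendrocytes, reached at most 1.77 normalized counts in any library, and Aspa, the gene of aspartoacylase, reached 3.84. Mog, a gene of the outer myelin surface, ranged from 3.54 to 27.0. Mag, which encodes a myelin-associated glycoprotein, ranged from 51.3 to 116. These 6 genes thus lay well below Mbp and Cnp in the same libraries.

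The spread between libraries of a genotype differed widely among the 8 genes. The coefficient of variation of Gpr17 was 57.2% in the cKO and 37.0% in the control, while counting error alone at its level gives 7.59%. Sox10 varied by 36.2% within the cKO against 9.78% from counting, and Mbp by 5.95% in the cKO and 1.28% in the control against 3.10%. Among 12534 genes with a mean of at least 100, 0.343% had a larger pooled within-group SD of log2 counts than Gpr17 (0.69), 0.949% a larger one than Sox10 (0.47), 2.26% a larger one than Pdgfra (0.37) and 77.0% a larger one than Mbp (0.06). This set spans all levels above the minimum, and Sox10 lies near its low end, where counting error is largest.

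The deviations of 6 genes from their group means had the same sign in 4 of the libraries. Olig1, Sox10, Pdgfra, Cspg4, Gpr17 and Cnp were all above their group mean in cKO replicate a and in control replicate b, and all below it in cKO replicate b and control replicate a. This set was picked after its values were seen, and the following correlations describe it over 6 libraries that share size factors and group means. The 15 pairs had a within-group Pearson r of 0.39 to 0.98, highest for Olig1 and Gpr17 and lowest for Cspg4 and Cnp, whose deviation in cKO replicate b was -0.0088. Among the 5 genes other than Cnp, the 10 pairs had an r of 0.72 to 0.98, and Cnp had an r of 0.39 to 0.88 with these genes. With Mbp, the 5 genes had an r of -0.20 to 0.38. With any single library left out, the values of the 10 pairs ranged from 0.55, without cKO replicate a, to 0.996.

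**Figure D4:**
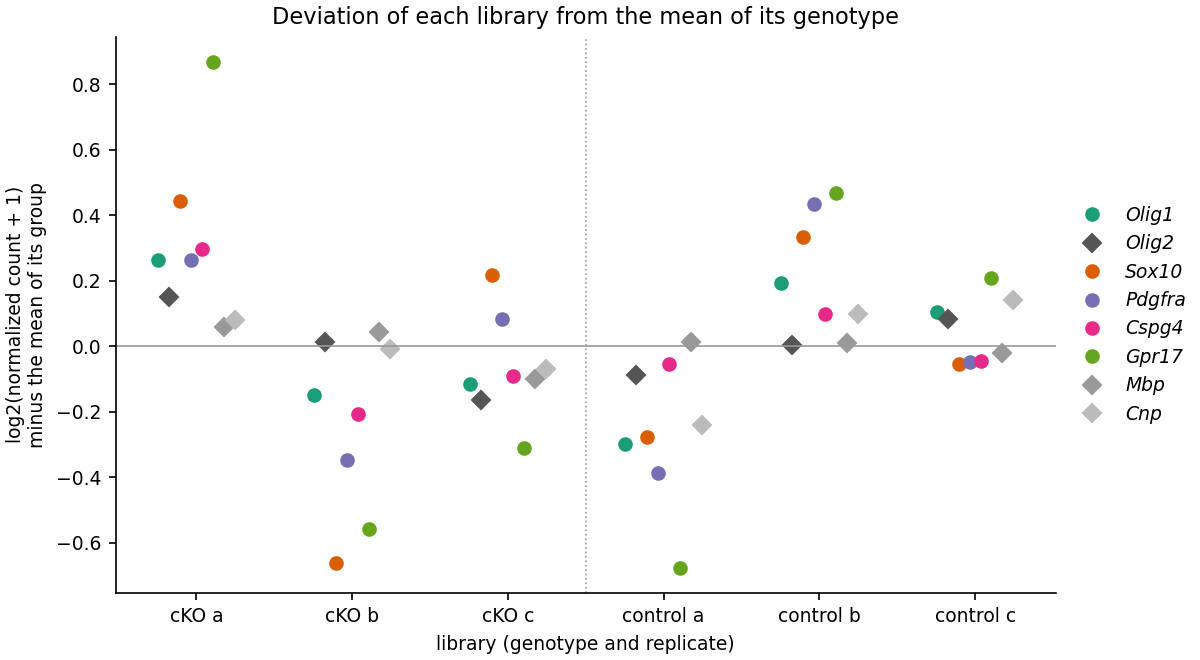
Deviation of each of the 8 genes from the mean of its genotype, as log2(normalized count + 1), by library; each point is 1 gene in 1 library, coloured by gene. Gpr17 spans 0.87 in cKO replicate a to -0.68 in control replicate a, with Olig1, Sox10, Pdgfra, Cspg4 and Cnp on the same side in these libraries, and Mbp runs from -0.10 to 0.06.

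Other measures moved with these deviations, and their part in them was not tested. The 12 cycling-cell genes, led by Top2a and Mki67, summed to 5907, 7597 and 7165 normalized counts across cKO libraries and to 8922, 5699 and 6528 in the control, so that they were lowest in the libraries in which these genes were high. The within-group r with this sum ran from -0.97 for Olig1 to -0.68 for Cspg4 among the 5 genes, and it was -0.89 for Cnp and -0.13 for Mbp. The summed level of the 3 neuron markers whose reads were recovered, out of 8, gave an r of 0.77 to 0.98 with the 5 genes, 0.68 with Cnp and 0.43 with Mbp. The 4 Y-linked genes, which follow the sex of the pooled embryos, summed to 4423, 4938 and 3597 in the cKO and to 2476, 7631 and 8585 in the control. Their within-group r was 0.96 with Cnp, 0.73 with Olig1, 0.58 with Gpr17, 0.57 with Olig2 and 0.51 with Pdgfra, and 0.07 to 0.20 with Mbp, Cspg4 and Sox10. With this sum in the limma model, 0 of the 8 genes had an adjusted p under 0.05, and the log2 fold change was -0.10 for Olig1, -0.0092 for Gpr17, 0.17 for Pdgfra and 0.10 for Cnp.

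Genes of the related lists went both ways across the same libraries, as seen after the values were known. Of 72 tested related genes, 8 were lowest within the cKO and highest within the control in replicate b (Zfp488, Erbb3, Lhfpl3, Bcan, Tnr, Pcdh15, Fyn and Itpr2), and 11 had the opposite order. The share of all tested genes with either order was not counted, so these counts do not set the related genes apart. Erbb3, a neuregulin receptor gene, had 47.8, 8.45 and 31.4 normalized counts across cKO libraries against 20.3, 36.5 and 23.8 across controls. Lhfpl3, a gene enriched in precursors, had 799, 528 and 560 across cKO libraries against 564, 693 and 623 across controls. Pcdh15, a protocadherin gene that precursors also express, had 1099, 759 and 1051 across cKO libraries against 992, 1158.5 and 1029 across controls. Nkain4, of the same precursor list as Lhfpl3, was instead highest within the cKO and lowest within the control in replicate b. The summed transcription factors of specification had a within-group r of -0.72 to -0.99 with the 5 genes, and the summed ligands and receptors of -0.53 to -0.89. The summed genes listed as inhibitors had an r of -0.72 to -0.22 with the 5 genes. The summed other precursor genes had an r of 0.20 to 0.73 with them, and the summed other myelin genes of -0.21 to 0.50.

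Among 86 further genes of the lineage in 5 lists, 72 were tested and 0 had a limma adjusted p under 0.05. At an unadjusted p under 0.05 there were 7 (9.72%, against 2.77% of all genes), and 8 had groups that did not overlap (11.1%, against 7.63%). The adjusted p of the 7 genes was 1.00 each (limma). These lists were written with earlier results of these data known, so their counts are a description.

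Of 16 tested transcription factor genes of oligodendrocyte specification other than the members, 2 were lower in the cKO at an unadjusted limma p under 0.05 and 0 were higher, with a median log2 fold change of -0.09. Nkx6-2, a homeodomain factor gene of ventral progenitors and myelinating cells, had 162, 165 and 181 normalized counts across cKO libraries against 232, 221 and 240 across controls, so that its groups did not overlap (log2 fold change -0.45, SE 0.14). Sox8, the SoxE relative of Sox10, had 400.1, 447 and 536 across cKO libraries against 539.7, 536.0 and 566 across controls (log2 fold change -0.26, SE 0.11), with the groups apart by less than 1 normalized count. Nkx2-2, a factor gene that acts with Olig2 in differentiation, had 807, 927 and 761 across cKO libraries against 697, 849 and 908 across controls (log2 fold change 0.04, SE 0.11). The most abundant of this list, Smarca4 and Tcf7l2, had authors' means of 15637 and 15517 (cKO) and of 15249 and 14342 (control), with no reads recovered per library.

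Of 11 tested genes listed as inhibitors of differentiation, 2 were lower in the cKO at an unadjusted p under 0.05 and 0 were higher (median -0.09). That label was not checked gene by gene. Hes5, a Notch effector gene, had 566, 826 and 587 normalized counts across cKO libraries against 836, 727 and 886 across controls, with overlapping groups (log2 fold change -0.33, SE 0.13). Gpr37, a receptor gene that restrains myelination, had 213, 184 and 129.9 across cKO libraries against 224, 274 and 220.3 across controls (log2 fold change -0.46, SE 0.19). Its groups did not overlap. Tcf4, an E-protein gene and the most abundant of the list with reads per library, had means of 6430 ± 482 and 6760 ± 1067.

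Of 17 tested ligand and receptor genes, 1 was higher in the cKO at an unadjusted p under 0.05 and 0 were lower (median -0.03). Cxcl12, a chemokine gene that guides precursors and is also made by meninges and vessels, had 340.1, 306 and 294 normalized counts across cKO libraries against 223.0, 266 and 222 across controls, with no overlap (log2 fold change 0.41, SE 0.13). Of 11 tested mesenchyme and meninges genes, 11 had a positive log2 fold change (median 1.21), as did 8 of 10 pericyte genes (median 0.10). Groups did not overlap for 4 of the 11 and 3 of the 10, against 7.63% of all genes tested. The pericyte genes without overlap include Notch3, which was lower in the cKO (log2 fold change -0.16). The mesenchyme sum was highest in cKO replicate c, where Cxcl12 was the lowest of the cKO libraries. The part of these cells in the Cxcl12 values was not tested. Pdgfa, the ligand gene of the Pdgfra receptor, had 455, 441 and 351 across cKO libraries against 309, 584 and 418 across controls, and these overlapped (log2 fold change -0.02, SE 0.20). Shh, the ventral morphogen gene that induces Olig2, averaged 468 ± 38.5 in the cKO and 549 ± 135 in the control (SD, n = 3), with control replicate c above the other 5 libraries (log2 fold change -0.20, SE 0.15). Igf1r and Ptch1, the most abundant receptors of the list, had log2 fold changes of 0.07 (SE 0.07) and -0.03 (SE 0.06).

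Of 13 tested further precursor genes, 1 was lower in the cKO at an unadjusted p under 0.05 and 0 were higher (median -0.05). Bcan, which encodes the matrix proteoglycan brevican, had 1424, 1405 and 1678 normalized counts across cKO libraries against 1745, 1912 and 1783 across controls, with no overlap (log2 fold change -0.28, SE 0.08). Of 15 tested myelin genes, 1 was lower and 0 were higher (median 0.01). Cd9, a tetraspanin gene of myelin and many other cells, had 406, 405 and 394 across cKO libraries against 546, 497 and 432 across controls, with no overlap (log2 fold change -0.29, SE 0.11). The most abundant of these lists had authors' means of 13306 for Ptprz1 and 12594 for Fabp7 in the cKO against 13533 and 13725 in the control, and of 11661 against 12056 for Gpm6b.

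**Figure D5:**
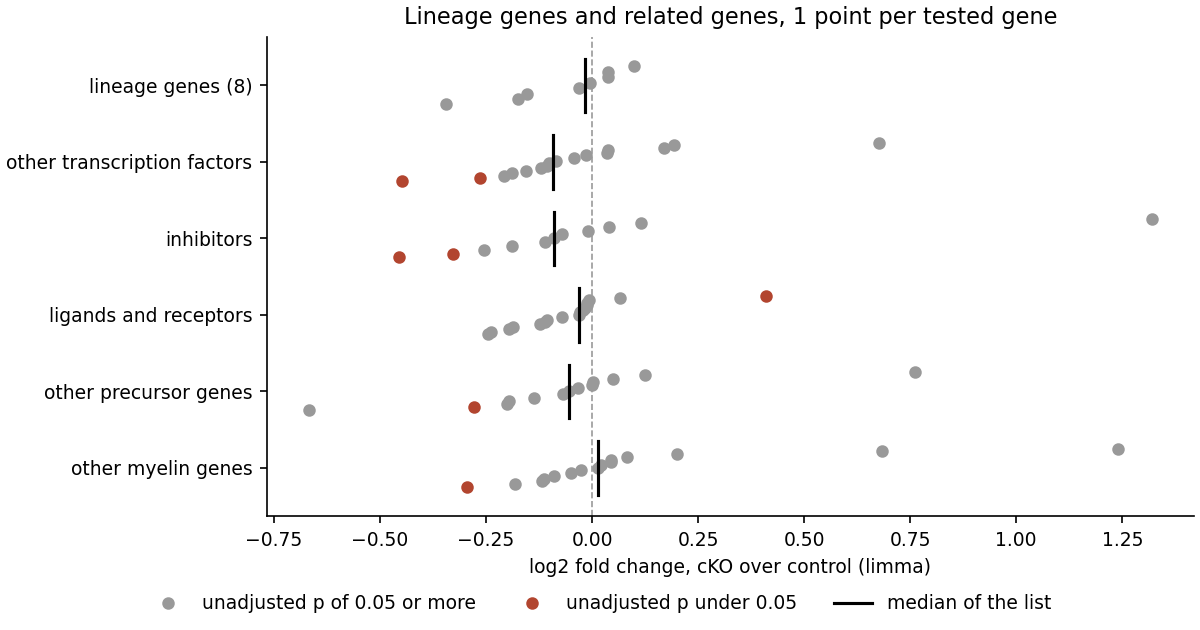
Log2 fold change of cKO over control (limma) for the tested genes of the 5 related lists and the 8 members, 1 row per list; points are genes and vertical marks are list medians, with coloured points for an unadjusted p under 0.05. The medians lie between -0.09 and 0.01, and 1 coloured point (Cxcl12) lies to the right of 0 and 6 to the left.

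Markers of other cell types were measured beside these genes. Of 10 tested radial glia and young astrocyte genes, 5 were lower in the cKO at an unadjusted limma p under 0.05 (Slc1a3, Hes5, Aldh1l1, Aldoc and Tnc) and 0 were higher, against 1.61% lower and 1.16% higher of all genes tested, with a median log2 fold change of -0.22. The adjusted p of these 5 genes was 1.00 each (limma). Their recovered members summed to 30337, 32298 and 33130 normalized counts across cKO libraries and to 35984, 35095 and 33492 in the control, so the groups did not overlap. Radial glia also express Hes5 and Bcan, and the part of this difference in the values of the lineage genes was not tested. Cranial motor neuron genes, whose precursors express Olig2, summed to 1206 to 1892 in the cKO and to 1067 to 1367 in the control, with Isl1 at 755 to 1650 over all libraries.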

How the data were processed

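Midbrain RNA of 3 cKO and 3 control libraries was sequenced in pairs of reads and, per the paper, mapped on GRCm38.p4. The submitters' processing notes also name TopHat 1.0.14, Bowtie2 2.1.0, HTSeq 0.6.1p1 and DESeq 1.10.1, with no role. The authors deposited 1 table whose signal columns are group means of read counts divided by a size factor per library; 3 lines that name no gene held 31.8% of the mean counts and were left out. The p-values, adjusted p-values, ratios and log2 ratios that the authors deposited, and a rank column among the other columns, are the authors' own comparison and were not used.

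Reads per library were recovered as the whole numbers that give each deposited mean, for sums of up to 30000 reads per group. This left out 411 genes of high count (recovered genes hold 72.2% of the normalized counts), and 0 of 1000 decoy values had an answer. Libraries are named a to c by falling size factor, so they carry a genotype but no sample number. The p-values measure the spread between libraries of pooled embryos.

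All genes with recovered reads whose normalized count averaged 10 or more entered the test in limma 3.58.1 (voom weights, genotype as the term) in R 4.3.3. Benjamini-Hochberg adjustment was over all genes tested, with a threshold of 0.05. Unadjusted p-values and 95% intervals are from the same fit. The fit was tested on simulated counts with the same spread (dispersion 0.0035) for all genes. That test does not speak for genes with a wider spread between libraries, such as Gpr17 and Sox10. Single genes were compared by an exact permutation test (scipy 1.17.1), whose smallest two-sided p is 0.1. Exon lengths and positions are from GENCODE M21 on GRCm38, and 26693 of 26852 identifiers had a symbol there. The rule named all 8 genes, and of each list the 2 most abundant genes and those with an unadjusted p under 0.05; other genes were named after their values were seen. Members and lists were chosen with earlier results of these data known. Alternatives were other scalings, minimum counts, limma-trend, covariates, pseudocounts and leaving out each library. Some genes of the lists are not reported here.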

Additional observations from a re-analysis of the deposited data

How the results depend on the processing

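Of the 8 genes, 0 had an adjusted p under 0.05 in any of 14 limma fits. The number with an unadjusted p under 0.05, which was 0, became 1 (Olig1) once the summed cycling genes entered as a covariate, and ranged from 0 to 1 when each library was left out. Of 136 log2 fold changes of the 8 genes under the alternatives, 122 kept their direction and 14 turned it, 12 of these when a library was left out. Once the summed Y-linked genes entered as a covariate, Olig2 was at 0.0005 and Cspg4 at 0.0072. When each library was left out, log2 values lay at -0.1109 to 0.0493 for Olig2, from -0.11 to 0.32 for Pdgfra, from -0.17 to 0.10 for Cspg4, from -0.63 to 0.13 for Gpr17 and from -0.0903 to 0.1042 for Cnp. Over all genes, the number with an adjusted p under 0.05 was 1 with the cycling and 1 with the Y-linked covariate, and 0 to 3 when each library was left out. The number with an unadjusted p under 0.05, which was 465, was 974 when all 26441 recovered genes with a read were tested, 305 with a minimum mean of 100 (12534 genes tested), and 339 to 643 when each library was left out. Among the related genes it was 7, and 13 with the Y-linked covariate and 6 to 11 when each library was left out. The cause was not tested. No paired analysis was possible because the recovered libraries carry no sample number. With 3 libraries per group, the 95% interval of the cKO over control ratio was 0.514 to 1.21 for Sox10, 0.796 to 1.44 for Pdgfra and 0.520 to 1.55 for Gpr17, the widest among the 8 genes.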
